A study of Mus musculus with 2 samples.

Results

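The 10 genes studied here belong to the enzymatic defence against superoxide and peroxides, and their levels were described across the cell types of the inflamed mouse colon. They are the glutathione peroxidases Gpx1, Gpx2, Gpx3 and Gpx4, the superoxide dismutases Sod1, Sod2 and Sod3, and the peroxiredoxin Prdx1 with its partner enzymes Txnrd1 and Srxn1. They were taken by symbol, and all 10 were present among the 23197 genes listed for both libraries. Single-cell RNA-seq had been done on colon and rectum of C57BL/6 mice aged 8 to 10 weeks. Both groups had received DSS, dextran sulfate sodium, which damages the colon lining and causes colitis. The groups were wild type and a group labelled Elf-1 knockout (Elf-1-/-), Elf1 being an ETS-family transcription factor. Each group was 1 library, made from the pooled cells of 3 mice, so mice could not be told apart, no test between groups was possible, and every interval given here covers counting error only.

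Superoxide dismutases turn superoxide into hydrogen peroxide, and glutathione peroxidases and peroxiredoxins then reduce hydrogen peroxide and organic peroxides, drawing on glutathione or on thioredoxin. Many genes of this system are targets of NRF2, a transcription factor released from its inhibitor KEAP1 under oxidative stress. In the colon these enzymes face reactive oxygen species made by the epithelium and by neutrophils and macrophages that enter during colitis.

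Of the 10 members, 5 (Gpx1, Gpx2, Gpx3, Gpx4 and Txnrd1) encode selenoproteins, whose selenocysteine is read from a TGA codon that elsewhere means stop. The coding sequence around that codon is shown because it is what sets these members apart from the other 5 at the level of sequence. The codon is in capitals, 5′ to 3′ on the coding strand, from the GENCODE M21 transcripts on GRCm38. It lies in exon 1 of 2 in Gpx1 (chr9:108339451-108339453) and in Gpx2 (chr12:76795256-76795258), in exon 2 of 5 in Gpx3 (chr11:54907256-54907258), in exon 3 of 7 in Gpx4 (chr10:80054737-80054739) and in exon 14 of 14 in Txnrd1 (chr10:82896037-82896039).
Gpx1: aatgtcgcgtctctcTGAggcaccacgatc
Gpx2: aatgtggcgtcactcTGAggaacaactacc
Gpx3: aacgtagccagctacTGAggtctgacagac
Gpx4: aacgtggcctcgcaaTGAggcaaaactgac
Txnrd1: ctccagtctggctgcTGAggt
In the 4 glutathione peroxidases the codon sits within the first part of the protein, at codon 47 of 201 in Gpx1, 40 of 190 in Gpx2, 73 of 226 in Gpx3 and 73 of 197 in Gpx4. In Txnrd1 it is codon 498 of 499, the last but 1 before the stop.

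Promoters of the members were searched on both strands for the core of the antioxidant response element bound by NRF2, TGACNNNGC, in RefSeq windows of GRCm38.p6 from 250 bases before to 50 bases after a start. A window was found for 9 members, Sod3 being the exception, and 4 of the 9 held the core (Sod1, Prdx1, Txnrd1 and Srxn1), against 14.0% of all genes with a window. The related form TGAGNNNGC was found in 2 of the 9 (Prdx1 and Srxn1), against 19.8% of all genes. The AP-1 motif TGACTCA, which can overlap that core, was found in Prdx1 and Srxn1, and in 5.95% of all genes. The matches of the peroxiredoxin group are shown, since these 3 genes are described together in macrophages later. Capitals mark the core, which in all 3 is read on the opposite strand, and positions count from the start to which the window belongs. Txnrd1 also has windows at other starts, which did not hold the core.
Prdx1, at -133, chr4:116685456-116685484: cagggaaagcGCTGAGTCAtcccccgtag
Txnrd1, at -92, chr10:82859104-82859132: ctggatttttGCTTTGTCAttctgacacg
Srxn1, at 28, chr2:152105542-152105570: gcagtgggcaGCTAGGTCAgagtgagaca
In Prdx1 the core and an AP-1 motif share bases. In Srxn1 the related form TGAGNNNGC and an AP-1 motif share bases at -45, and that form also lies at -158. Such a match is a string of letters and no evidence of binding.

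The wild-type library held 7718 cells after filtering (29975598 UMIs, median 2029.5 per cell) and the library labelled knockout 9504 (37561078 UMIs, median 2638). A UMI is a tag that counts an RNA molecule once. Of 30 clusters, 28 could be named from markers, in 13 classes, and 11 classes reached the 40 cells per library set for a comparison. Of the barcodes, 57 occurred in both libraries. Several classes were made of different cells in the 2 libraries: epithelium was mostly absorptive colonocytes in wild type (cluster 7, 897 against 13 cells) and mostly enteroendocrine cells in the library labelled knockout (cluster 29, 27 against 57), with 131 goblet cells in wild type and 0 in the other. Fibroblasts were mostly homeostatic Wnt4 Adamdec1 cells in wild type (cluster 8, 856 against 15) and inflamed Il11 Mmp10 Mmp13 cells in the library labelled knockout (clusters 1 and 13, 102 and 51 against 1325 and 436). Smooth muscle and pericytes were mostly cluster 15 in wild type (290 against 145) and cluster 6 in the other (42 against 900). B cells were mostly cluster 0 in wild type (1844 against 154) and cluster 3 in the other (392 against 812). Markers counted outside their own cell type also differed. Neutrophil markers in cells that were not neutrophils stood at 4.66 and 24.8 UMIs per cell. Haemoglobin in cells that were not erythroid stood at 2.52 and 27.3, and epithelial markers in cells that were not epithelial at 1.77 and 0.275. How much of this was free RNA (RNA from outside the cell), mixed cells or the cells' own expression was not tested. UMIs of Elf1 stood at 192 and 180 CPM (UMIs of a gene per 1000000 UMIs) over all cells. Since these cover the whole gene and the sources used here do not give the deleted part, they check nothing about the deletion.

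The members' levels are given as CPM within a class. A pair of member and class was called where the CPM differed at least 2-fold between libraries and the interval of the ratio excluded 1. Of the 110 pairs, 94 had at least 50 UMIs, 25 were higher and 7 lower in the library labelled knockout, and 62 did not pass. Over all genes by the same rule, 6.51% of 70320 gene and class pairs were higher and 9.69% lower. Higher pairs belonged to Gpx3, Sod2, Sod3 and Srxn1, and lower pairs to Gpx1, Gpx2, Gpx4 and Txnrd1. Sod1 and Prdx1 had no called class. Only 12 of the 25 higher pairs and 5 of the 7 lower ones had, in the library with the higher level, at least 3 times as many UMIs per cell as the class with the fewest. That lowest class is an upper bound on free RNA, so a pair near it may hold no expression of its own.

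The classes differed in how many members were called. Endothelium had 4 members higher and 0 lower of 9 measured (Gpx3, Sod2, Sod3 and Srxn1), where 3.84% of all genes were higher and 6.59% lower. Macrophages had the same 4 higher and 0 lower of 9 (5.31% and 6.22% of all genes), as did T and innate lymphoid cells (5.21% and 3.45%). Dendritic cells had 3 higher and 0 lower of 8 (12.3% and 7.87%), and smooth muscle and pericytes 2 higher and 0 lower of 9 (5.96% and 11.1%). In the lining and stroma, epithelium had 2 higher and 2 lower of 10 (15.8% and 19.3%), and fibroblasts 0 higher and 1 lower of 10 (3.43% and 13.6%). B cells had 2 higher and 1 lower of 9 (4.01% and 6.02%), plasma cells 1 higher and 1 lower of 9 (4.5% and 6.17%), neutrophils 2 higher and 1 lower of 9 (5.57% and 8.63%), and erythroid cells 1 higher and 1 lower of 3 (15.6% and 9.14%).

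**Figure D1:**
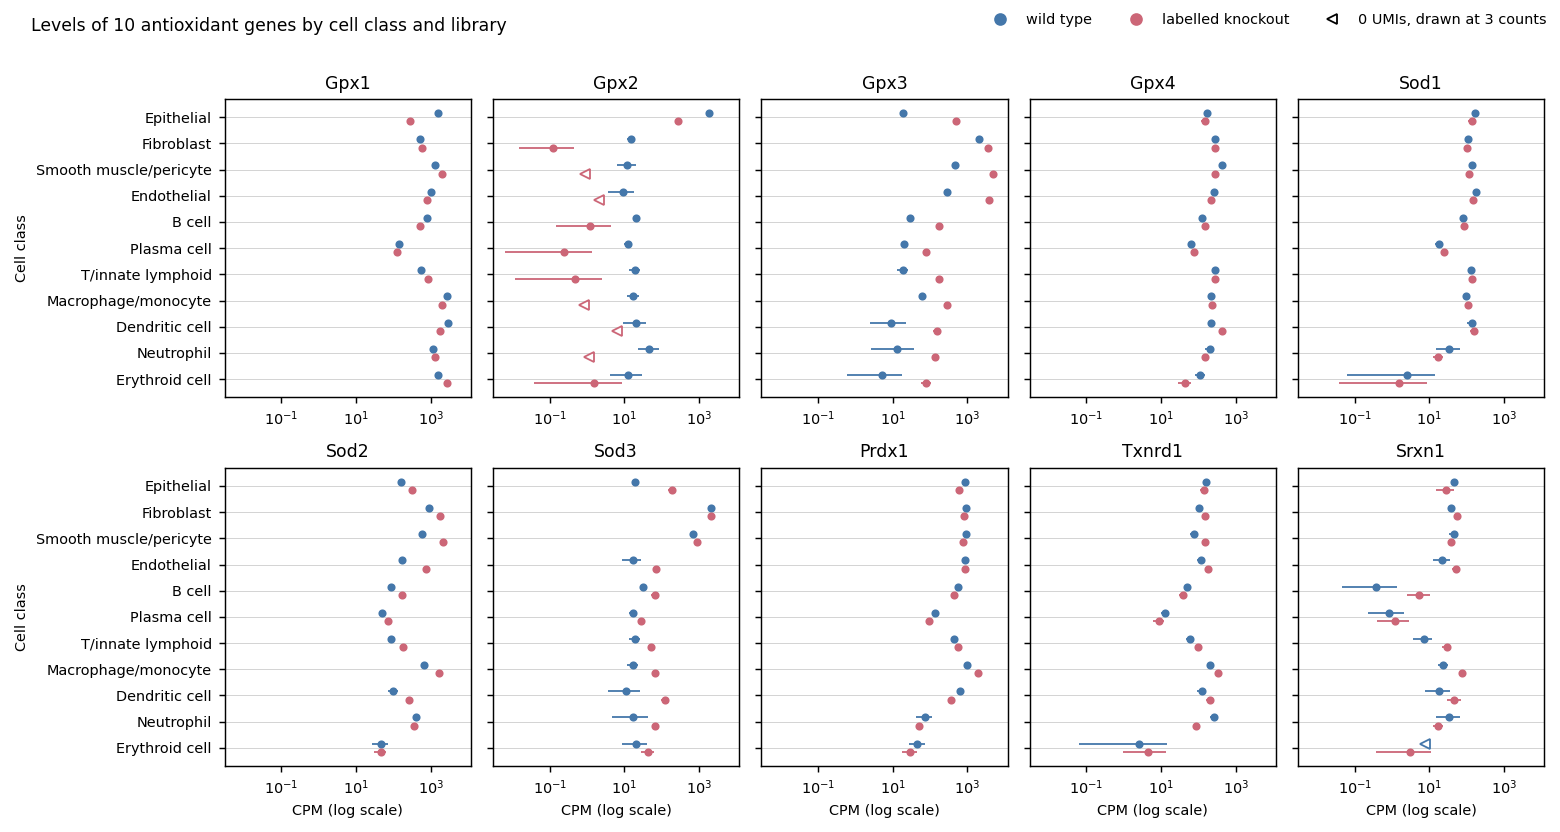
Level of each member (CPM, log axis) in the 11 compared cell classes, in the wild-type library (blue) and the library labelled knockout (red). Points are sums over the cells of a class, bars are exact 95% Poisson intervals for counting error, and open triangles are classes with 0 UMIs drawn at 3 counts. Gpx2 was high in epithelium only, Gpx3 and Sod3 in stroma, and Sod1 and Prdx1 had no class past the 2-fold rule.

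**Figure D2:**
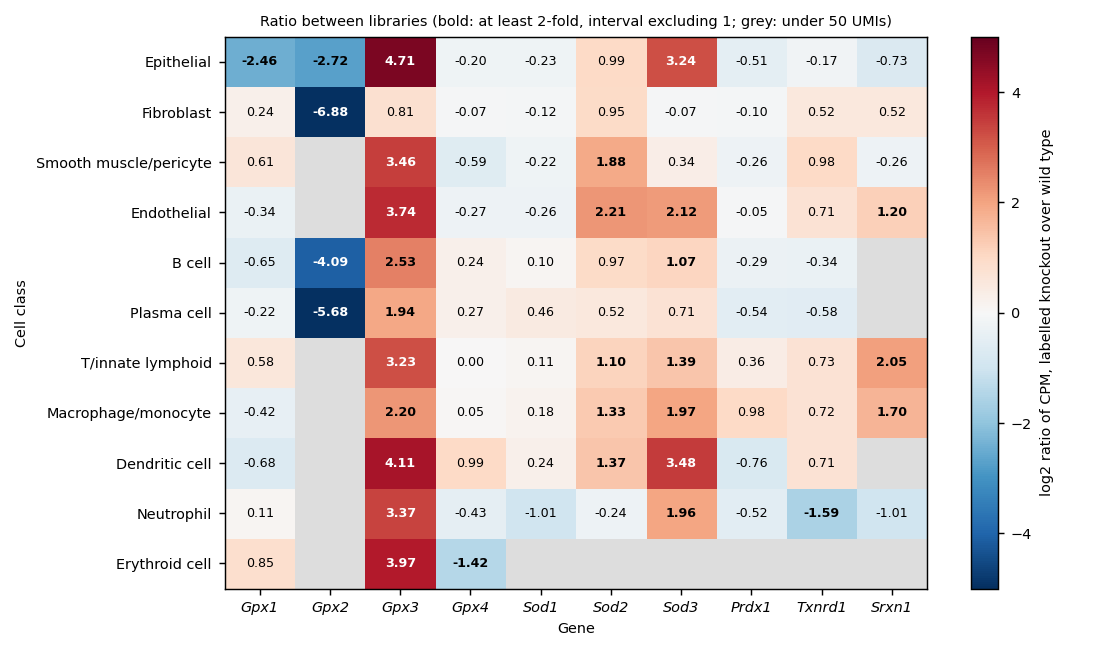
Log2 ratio of CPM, labelled knockout over wild type, by class (rows) and member (columns). Bold values are at least 2-fold with an interval excluding 1, and grey cells had under 50 UMIs in both libraries together. The column of Gpx3 is positive in all 11 classes, and that of Gpx2 negative in the 4 classes with enough UMIs.

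Gpx3, the glutathione peroxidase secreted into plasma and extracellular fluid, was the member that differed in most classes. It was at 2068 CPM in wild-type fibroblasts (10873 UMIs) and 3636 in those labelled knockout (58438 UMIs), 1.76-fold (95% interval 1.72 to 1.79). In smooth muscle and pericytes it was at 452 and 4968 CPM, 11.0-fold higher (10.1 to 12.02), and in endothelium at 276 and 3691 CPM, 13.4-fold higher (11.7 to 15.4). The 2 libraries did not overlap in any of these classes, and the order of levels changed: fibroblasts led in wild type and smooth muscle and pericytes in the other library. Over 11 classes Gpx3 was called higher in 10, with fibroblasts the exception, where 6.51% of all gene and class pairs over these classes were higher. In fibroblasts all genes together had a median log2 ratio of -0.35, and Gpx3 lay 1.16 above that median.

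Within stroma and endothelium, Gpx3 was higher in 6 of 8 clusters that had at least 40 cells in each library. By the same rule, the share of all genes higher was 3.46% in cluster 1, 3.02% in cluster 6, 3.78% in cluster 11, 6.68% in cluster 13, 7.03% in cluster 15, 5.37% in cluster 19, 4.73% in cluster 20 and 6.52% in cluster 21. Lymphatic endothelium (cluster 20) stood at 586 and 7324 CPM, a 12.5-fold difference (10.7 to 14.6), and blood endothelium (cluster 19) at 88.2 and 613 CPM, 6.95-fold (5.08 to 9.73). Smooth muscle cluster 15 stood at 308 and 1963 CPM, 6.38-fold (5.53 to 7.39). Smooth muscle and pericytes were mostly cluster 15 in wild type and mostly cluster 6 in the other library. Their class ratio of 11.0 therefore also carries the different mix of clusters. The inflamed fibroblasts of cluster 13 stood at 1851 and 6525 CPM, 3.53-fold (3.25 to 3.83), whereas the inflamed fibroblasts of cluster 1 stood at 1731 and 2752 CPM, 1.59-fold. The subepithelial Wnt5a Bmp7 fibroblasts (cluster 12) had high Gpx3 in both libraries, at 6208 CPM (23 cells) and 7597 CPM (494 cells).

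**Figure D3:**
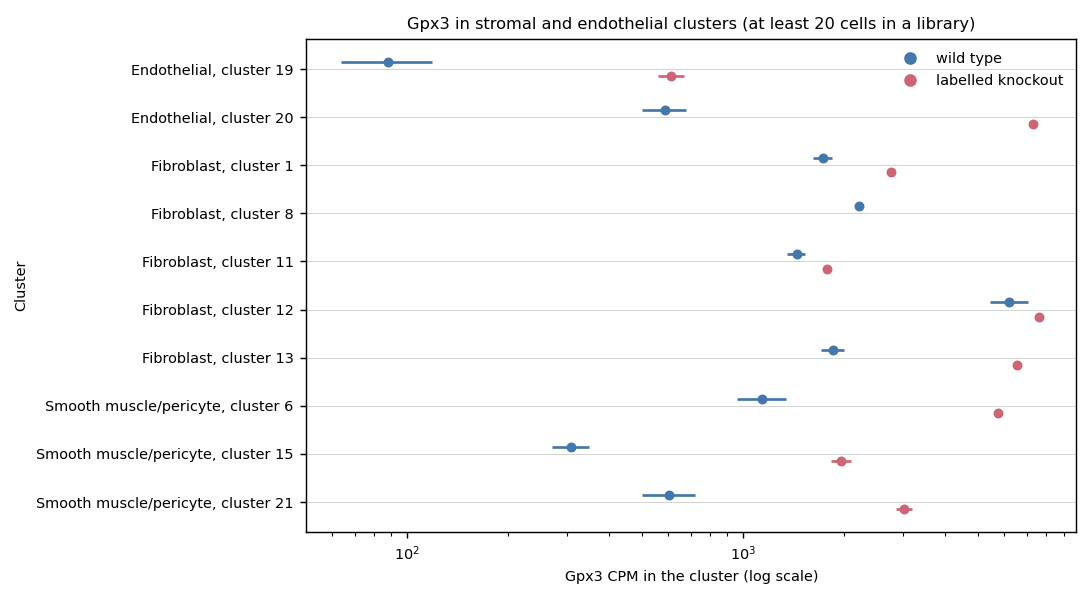
Gpx3 level (CPM, log axis) in each stromal and endothelial cluster with at least 20 cells in a library, wild type in blue and labelled knockout in red, with 95% Poisson intervals. Cluster 20, lymphatic endothelium, has the widest gap, from 586 to 7324 CPM, and cluster 12 the smallest of those drawn for both libraries.

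In immune cells Gpx3 was low in wild type and higher in the library labelled knockout, and in 4 of these classes it was close to the free-RNA bound there. B cells stood at 29.8 and 172 CPM, T and innate lymphoid cells at 18.3 and 171, dendritic cells at 8.82 and 153, and neutrophils at 12.7 and 131. In the library labelled knockout these 4 classes held 1.00 to 1.43 times the UMIs per cell of the lowest class, which was neutrophils at 0.274 UMIs per cell. The bound itself was 0.0182 UMIs per cell in wild type. Plasma cells, at 20.4 and 78.1 CPM, 3.83-fold (3.05 to 4.86), macrophages, at 60.9 and 279 CPM, and epithelial cells, at 18.7 and 490 CPM, lay at 3.49, 3.65 and 13.1 times the bound in the library labelled knockout. Plasma cells had the highest median UMIs per cell of the 11 classes in both libraries, 14293.5 and 12531. The enteroendocrine cluster held 237 of the 250 epithelial Gpx3 UMIs in the library labelled knockout (481 CPM) but 1 of 130 in wild type (4.61 CPM), where absorptive colonocytes held 101 and goblet cells 28. The share of these differences due to free RNA was not tested.

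Gpx2, the gastrointestinal glutathione peroxidase of the epithelium, was found in epithelial cells in both libraries. It stood at 1849 CPM in wild-type epithelium (12859 UMIs) and 280 CPM in that labelled knockout (143 UMIs), a 6.60-fold lower level (5.60 to 7.84). Within the enteroendocrine cluster the levels were 309 and 282 CPM, a ratio of 0.912 (0.677 to 1.24), whose interval included 1. The clusters that held most wild-type epithelium, absorptive colonocytes (1885 CPM) and goblet cells (1956 CPM), had 13 and 0 cells in the other library. Averaged over clusters in place of cells, the log2 ratio in epithelium was -0.13. This is the enteroendocrine ratio again and no separate check, as no other epithelial cluster had 20 cells in both libraries. Outside epithelium Gpx2 ran from 8.94 to 46.6 CPM in wild type and from 0 to 1.51 CPM in the other library, beside epithelial markers at 1.77 and 0.275 UMIs per cell in the same cells. The 3 calls lower outside epithelium, in fibroblasts, B cells and plasma cells, rest on those low counts, with 77, 108 and 60 UMIs in wild type and 2, 2 and 1 in the other library. The part played by free epithelial RNA was not tested.

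Gpx1, the abundant cytosolic glutathione peroxidase that reduces hydrogen peroxide, was lower in the epithelium labelled knockout. The epithelial levels were 1529 and 278 CPM, 5.49-fold lower (4.66 to 6.53). In the enteroendocrine cluster they were 429 and 276 CPM, 1.55-fold lower (1.18 to 2.04). Averaging over clusters put the epithelial log2 ratio at -0.64, under 2-fold, which is the ratio of that same cluster and no separate check. Dendritic cells had the highest wild-type level (2862 CPM) and macrophages the next (2679 CPM), whose intervals overlapped. In the library labelled knockout erythroid cells led at 2778 CPM (1546 in wild type), apart from the macrophages at 2003 CPM. In smooth muscle cluster 15 Gpx1 stood at 1410 and 3574 CPM, 2.53-fold higher (2.34 to 2.74), and in cluster 6 at 685 and 1870 CPM, 2.73-fold higher (2.20 to 3.43), while in cluster 21 it was at 1218 and 1048 CPM, a ratio of 0.861 (0.734 to 1.01). Over the whole class the ratio was 1.53 (1.44 to 1.62).

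Gpx4, which reduces lipid hydroperoxides within membranes and limits ferroptosis, had a single called class. It stood between 63.0 and 423 CPM in wild-type classes and between 42.4 and 428 in those labelled knockout. That class was erythroid cells, where it was lower, at 113 and 42.4 CPM (45 and 28 UMIs), 2.67-fold (1.63 to 4.44). Dendritic cells were at 216 and 428 CPM, a ratio of 1.98 (1.55 to 2.55), just under 2-fold. A near-identical processed copy, Gpx4-ps2, was counted separately (1086 and 1848 UMIs over all cells), and reads may have been divided between the genes.

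Sod2, the manganese superoxide dismutase of mitochondria, had higher levels in the labelled knockout cells of smooth muscle and pericytes, endothelium, macrophages, dendritic cells and T cells. It was at 592 and 2183 CPM in smooth muscle and pericytes, 3.69-fold (3.40 to 3.995), and at 165 and 762 CPM in endothelium, 4.63-fold (3.85 to 5.59). Within smooth muscle and pericytes the clusters differed: cluster 15 stood at 335 and 2612 CPM, 7.79-fold (6.81 to 8.94), cluster 21 at 506 and 1516 CPM, a difference of 2.43-fold to 3.73-fold by its interval, and cluster 6 at 2405 and 2219 CPM, a ratio of 0.923 (0.821 to 1.04). Cluster 6, with 42 and 900 cells, held 295 of the class's 665 Sod2 UMIs in wild type and 5712 of 7419 in the other library, so the class ratio also carries the different mix of clusters. In macrophages it was at 653 and 1640 CPM, 2.51-fold (2.36 to 2.67). Both endothelial clusters differed, lymphatic at 146 and 907 CPM and blood at 176 and 639 CPM.

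In fibroblasts Sod2 was at 906 and 1744 CPM, 1.93-fold (1.87 to 1.99), under 2-fold, yet 1.29 log2 units above the class's median gene. The inflamed clusters were close between libraries, at 1730 and 2009 CPM in cluster 1 and at 1528 and 1818 in cluster 13, and both exceeded the homeostatic cluster 8 of wild type (807 CPM). Neutrophils had 411 CPM in wild type and 349 in the other library, a ratio of 0.849 (0.688 to 1.06) whose interval included 1. For dendritic cells and T cells the levels were 99.2 and 257 CPM, and 84.7 and 182 CPM. In the library labelled knockout these classes held only 2.23 and 1.49 times the UMIs per cell of the lowest class. In wild type T cells were themselves the lowest class. The part of free RNA in these differences was not tested.

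Sod3, the extracellular superoxide dismutase bound to heparan sulfate, was the fibroblast member in both libraries: 2138 and 2030 CPM in fibroblasts and 695 and 878 CPM in smooth muscle and pericytes, neither past 2-fold. Within the inflamed fibroblast clusters it was lower in the library labelled knockout, from 3835 to 2588 CPM in cluster 1, and from 4217 to 2660 in cluster 13, under 2-fold in each. Of its 10 measured classes, 7 were called higher (6.51% of all gene and class pairs), at 50.7 to 186 CPM in the library labelled knockout against 11.0 to 30.5 CPM in wild type. Epithelium, the only one of these at 3 times the free-RNA bound, stood at 19.7 and 186 CPM (12.7 times the bound). The other 6 lay at 1.00 to 2.78 times that bound, in a library where fibroblasts were 28.6% of cells, against 15.0% in wild type. Whether these UMIs came from free stromal RNA was not tested.

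Sod1, the cytosolic copper and zinc superoxide dismutase, showed no call in 10 measured classes. Its levels ran from 17.9 to 179 CPM in wild type and from 16.8 to 159 in the other library, leaving out erythroid cells with 1 UMI in each. Its ratio in fibroblasts was 0.922 (0.837 to 1.02), in macrophages 1.14 (0.952 to 1.36) and in epithelium 0.850 (0.658 to 1.08). In plasma cells it was 1.38 (1.02 to 1.86), with an interval above 1 and under 2-fold. Neutrophils, with 8 and 44 UMIs, had a ratio of 0.496 (0.231 to 1.22), which does not exclude a 2-fold difference. The intervals of the other 9 measured classes do. Beside 6.51% higher and 9.69% lower over all gene and class pairs, 12 of 30 measured pairs of the 3 superoxide dismutases were higher and 0 lower. Of these, 7 were Sod3 in classes mostly near the bound and 5 Sod2, of which 3 lay at 3 times the bound or more.

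Of the peroxiredoxin group, only Srxn1 was called higher in macrophages, a class where 18 and 20 of 23 macrophage markers had their highest level. Prdx1, a thiol peroxidase that reduces hydrogen peroxide, was highest in macrophages in both libraries, at 974 CPM in wild type, where smooth muscle and pericytes, the next class, did not differ from it beyond their intervals, and at 1921 CPM in the other library, apart from all others. The ratio was 1.97 (1.88 to 2.08), just under the 2-fold limit. Srxn1, sulfiredoxin, which restores peroxiredoxins that were over-oxidised, was at 23.3 and 75.8 CPM in macrophages, 3.25-fold (2.37 to 4.54). Txnrd1, the cytosolic thioredoxin reductase that recycles thioredoxin with NADPH, was at 201 and 330 CPM there, 1.64-fold (1.46 to 1.85). Neither rise was limited to macrophages. Srxn1 was at 7.01 and 29.0 CPM in T and innate lymphoid cells, 4.14-fold (2.26 to 8.21). In endothelium it was 2.30-fold higher (1.34 to 4.16). Its ratio was below 1 in epithelium, smooth muscle and pericytes, and neutrophils. The Txnrd1 ratio was 1.66 in T and innate lymphoid cells, 1.63 in endothelium and dendritic cells, and 1.98 in smooth muscle and pericytes. It was below 1 in epithelium, B cells, plasma cells and neutrophils.

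Within macrophages, these genes passed the 2-fold rule in cluster 10, whose leading genes were C1qa, C1qb, C1qc, Mrc1 and Spic and which was named resident macrophage-like, with 231 wild-type cells and 363 labelled knockout. There Prdx1 stood at 1221 and 3182 CPM, 2.61-fold higher (2.45 to 2.77), Txnrd1 at 119 and 331 CPM, 2.78-fold (2.29 to 3.41), and Srxn1 at 21.3 and 118 CPM, 5.54-fold (3.57 to 9.03). In cluster 4, the monocyte and inflammatory macrophage-like cells (322 and 642), Prdx1 stood at 701 and 527 CPM, Txnrd1 at 291 and 329, and Srxn1 at 25.6 and 29.2, none past 2-fold. The share of cluster 10 cells with a Srxn1 UMI, after each cell was thinned to 1000 UMIs, was 1.92% and 9.01%. Before thinning it was 6.93% and 27.5%. In B cells, a class with almost no Srxn1, the unthinned share was 0.0788% and 0.694%, at median depths of 1407 and 1165 UMIs against 3590 and 4258 in cluster 10. Thinning left 208 and 322 cells of cluster 10. The contrast between clusters 4 and 10 was not tested, since a library is 1 sample.

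In cluster 10, 6 of the 9 measured members were called higher and 0 lower (background 6.65% of genes higher, 7.74% lower), against 2 of 9 higher and 0 lower in cluster 4 (4.71% and 5.32%). The higher members in cluster 10 were Prdx1, Txnrd1, Srxn1, Sod2 (387 and 1592 CPM, 4.11-fold), Gpx3 (85.2 and 333 CPM) and Sod3 (12.6 and 81.0 CPM), the last 2 being the members with high stromal levels. Gpx1 stood at 2347 and 1911 CPM and Gpx4 at 193 and 233. In cluster 10, resident macrophage markers summed to 13306 and 12076 CPM, while monocyte and inflammatory macrophage markers summed to 6292 and 26169 CPM (6 of 14 at least 2-fold higher and 5 at least 2-fold lower), neutrophil markers to 5937 and 12144 CPM, and fibroblast markers to 1028 and 3605 CPM. None of the 13 resident markers was at 0 in either library, but 3 were at least 2-fold higher and 3 at least 2-fold lower. In cluster 4 monocyte and inflammatory macrophage markers summed to 20097 and 43791 CPM, neutrophil markers to 11880 and 33985, erythroid markers to 548 and 9891, and fibroblast markers to 531 and 1609. The part of these other cells or RNAs in the cluster 10 differences was not tested.

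**Figure D4:**
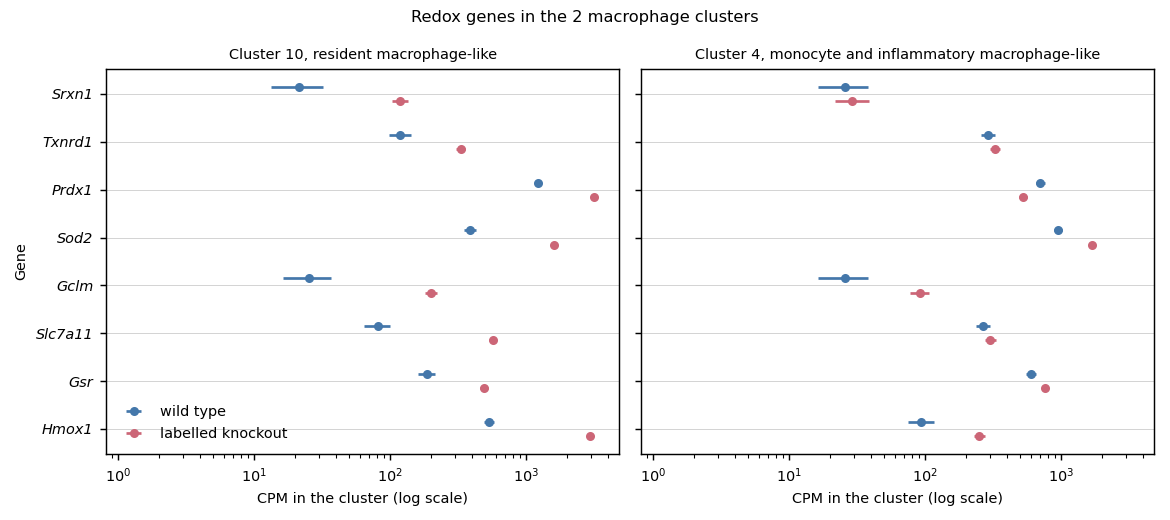
Levels (CPM, log axis) of peroxiredoxin-group and related redox genes in macrophage clusters 10 and 4, wild type in blue and labelled knockout in red, with 95% Poisson intervals. The 8 genes drawn were chosen among those past 2-fold in cluster 10, where they run from 2.61-fold for Prdx1 to 7.91-fold for Gclm, and of these 8 only Gclm and Hmox1 passed 2-fold in cluster 4.

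In neutrophils Txnrd1 was lower in the library labelled knockout. Its level was 267 CPM in wild type (63 UMIs) and 88.6 CPM in the other (232 UMIs), 3.01-fold lower (2.24 to 3.99). Srxn1 was at 33.9 and 16.8 CPM (8 and 44 UMIs), with an interval that included 1. Neutrophils held 165 cells in wild type and 1257 in the other library, so the wild-type values rest on few cells.

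Outside the members, part of the NRF2 list, counted with Gclc, Gclm and Slc7a11 from the glutathione list, was higher in the same macrophage cluster. Cluster 10 had 6 higher and 0 lower of 19 measured, the other 13 not passing (6.65% and 7.74% over all genes), and cluster 4 had 2 higher and 0 lower of 17 (4.71% and 5.32%). The added genes Gclm and Slc7a11 were among the 6, and clusters were not counted without the added genes. Over the whole macrophage class, the NRF2 list without the added genes had 2 higher and 0 lower of 17 (5.31% and 6.22%). With Gclc, Gclm and Slc7a11 included, such counts were not limited to macrophages. Fibroblast cluster 13 had 7 higher of 19 (6.68% of all genes higher) and fibroblast cluster 1 had 4 of 21 (3.46%). Smooth muscle cluster 15 had 6 higher and 1 lower of 15 (7.03% of all genes higher) and cluster 6 had 4 higher of 18 (3.02%). Neutrophils had 0 higher and 4 lower of 15 (5.57% higher and 8.63% lower over all genes in neutrophils). Hmox1, haem oxygenase, was at 537 and 2949 CPM in cluster 10, 5.49-fold (5.03 to 6.00). Gclm, the modifier subunit of the enzyme that starts glutathione synthesis, was at 25.2 and 199 CPM, 7.91-fold (5.31 to 12.3). Slc7a11, the cystine importer, was at 81.3 and 566 CPM, 6.97-fold (5.58 to 8.81). Gsr, glutathione reductase, was at 186 and 488 CPM, and is named after its values were seen.

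In neutrophils Slc7a11 was at 643 and 163 CPM, 3.95-fold lower (3.26 to 4.76), Maff, a small MAF partner of NRF2, at 144 and 53.1 CPM, Sqstm1, the autophagy receptor p62, at 686 and 284 CPM, and Nfe2l2, which encodes NRF2, at 1113 and 480 CPM, 2.32-fold lower (2.02 to 2.65). Hmox1 was also higher in fibroblasts, at 74.4 and 579 CPM, in smooth muscle and pericytes, at 22.3 and 197, and in endothelium, at 40.9 and 124. Fibroblasts had the cystine importer Slc7a11 at 0.761 and 21.0 CPM.

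Over the 11 classes, the NRF2 list had 17 of 156 measured pairs higher and 10 lower, glutathione synthesis and transfer 13 of 105 higher and 21 lower, and copper delivery and lipid peroxide defence 9 of 61 higher and 1 lower. Thioredoxins and glutaredoxins had 0 of 95 higher and 8 lower, and other peroxidases and catalase 1 of 58 higher and 5 lower. Selenoprotein synthesis and selenium transport had 2 of 57 higher and 1 lower, other selenoproteins 4 of 96 higher and 10 lower, and superoxide and peroxide sources 1 of 59 higher and 7 lower. Beside 6.51% higher and 9.69% lower over all genes, the shares were 10.9% and 6.41% for NRF2, 12.4% and 20% for glutathione, and 14.8% and 1.64% for copper and lipid peroxides. They were 0% and 8.42% for thioredoxins, 1.72% and 8.62% for other peroxidases, 3.51% and 1.75% for selenoprotein synthesis, 4.17% and 10.4% for other selenoproteins, and 1.69% and 11.9% for superoxide and peroxide sources. No test of these lists was made. Epithelium, whose cells differed between libraries, supplied many of the lower pairs, among them the glutathione transferases Gsta4 (88.8 and 3.92 CPM), Gstm2 (110 and 7.84) and Gsto1 (449 and 47.0) and the NADPH oxidase activator Noxa1 (34.1 and 3.92).

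Genes with the pattern most like each member, by Pearson correlation of log2(CPM + 10) over 22 class and library points that share libraries, are given as a description. For Gpx2 they were Cldn3, Pigr and Tspan1 (0.989, 0.988 and 0.986), for Gpx3 Serpina3n, Cp and Mt2 (0.966, 0.941 and 0.939), and for Sod3 Col3a1, Loxl1 and Grem1 (0.984, 0.982 and 0.981). Sod2 was most like Cxcl1, Cd302 and Ctsl (0.935, 0.933 and 0.930), Prdx1 like Parl, Dbi and Spryd7 (0.951, 0.949 and 0.944), and Srxn1 like Cd63, Mvp and Lrrfip2 (0.886, 0.883 and 0.879). Txnrd1 was most like Mtmr6, Atp6v1a and Slk (0.940, 0.939 and 0.930), Sod1 like Psmc5, Parl and Ccdc59 (0.976, 0.972 and 0.971), and Gpx1 like Dcaf12, Specc1 and 1810058I24Rik (0.690, 0.677 and 0.652). For Gpx4 they were Gpx4-ps2, Gm10250 and Myl6 (0.978, 0.898 and 0.896), the first being its processed copy.

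The class with the highest level was the same in both libraries for 3 of the 10 members (Gpx2, Sod3 and Prdx1), against 49.5% of 9630 genes with at least 500 UMIs. It differed for Gpx1, Gpx3, Gpx4, Sod1, Sod2, Txnrd1 and Srxn1. For Sod1 the leading classes, endothelium in wild type and dendritic cells in the other, did not stand apart from their neighbours beyond their intervals. Txnrd1 led in neutrophils in wild type (267 CPM, macrophages 201) and Srxn1 in epithelium (45.6 CPM, smooth muscle and pericytes 45.4), and neither stood apart from the next class there. The wild-type leader of Gpx1, dendritic cells, did not stand apart either. In the library labelled knockout Txnrd1 and Srxn1 led in macrophages, apart from the next class. For Sod1 and Txnrd1 the wild-type leader overlapped in its interval with the class that led in the other library. Their change of leader therefore does not exceed counting error in wild type. For Gpx1 and Srxn1 those classes were apart in wild type: erythroid cells had Gpx1 at 1546 CPM, and macrophages Srxn1 at 23.3 CPM, below the leaders.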

How the data were processed

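The deposited matrices hold raw UMI counts per gene and cell barcode, which the authors made with cutadapt 1.17, STAR 2.6.1a and featureCounts 2.0.1 on GRCm38, per the submitters' processing notes. Libraries came from the Singleron GEXSCOPE kit, per the labels' protocols. Neither the strand setting of the counting nor the barcode filter is stated in the labels, though no barcode had fewer than 500 UMIs. Gpx2 overlaps Fntb and Sod1 overlaps Scaf4 on the other strand, and Txnrd1 overlaps Eid3 on the same strand, so such reads may be shared.

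Cells with under 200 genes or over 25% mitochondrial UMIs were removed. Scrublet called 230 doublets in the library labelled knockout (2.36%) but 2 in wild type (0.0246%), so there the 406 highest scores (5%) were removed instead. Cells of both libraries were clustered together (scanpy 1.11.5, 2000 variable genes, 30 components, 15 neighbours, Leiden resolution 1) without the members or list genes, and named from markers. The naming rule and the 20% detection limit on leading genes were set after the clusters were seen. Members and lists were chosen with earlier results of these data known.

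UMIs were summed per class and library and divided by their total (CPM). Intervals are exact 95% Poisson, or conditional binomial for ratios. A class needed 40 cells in each library and a gene 50 UMIs in the class. The ratio rule was tested on simulated data. All 10 members were described in each class, with at most 4 highest and 4 lowest called list genes per class described, and the 3 most alike genes per member. edgeR 4.0.16 gave TMM factors only. With 1 library per group there are no p-values.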

Additional observations from a re-analysis of the deposited data

How the results depend on the processing

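Of the 32 called pairs, 9 stayed called in the same direction under every alternative tried. TMM factors and centring each class on its median gene gave 31 higher pairs and 7 lower. These shift the log2 ratios of fibroblasts by 0.34 and 0.35, of smooth muscle and pericytes by 0.18 and 0.17, and of epithelium by 0.03 and 0.11. Subtracting the lowest class as free RNA gave 15 lower pairs and turned 4 log2 ratios. Gpx3 in B cells went to -1.27 and Sod3 in T cells to -1.02. The values for Gpx3 in neutrophils (-3.47) and Sod3 in B cells (-3.43) rest on a floor of 3 counts and are not reversed levels. Neutrophils set the Gpx3 bound in both libraries, so they were left at 0 CPM in each. B cells set the Sod3 bound in the library labelled knockout, so they were left at 19.1 and 0 CPM. A limit of 10 UMIs gave 11 lower pairs, and one of 200 UMIs 16 higher and 3 lower. Requiring 3 times the bound, an alternative chosen after seeing the data, left 12 higher pairs. The count of members with the same leading class was 5 when members were used for clustering and 5 with immunoglobulin, haemoglobin and mitochondrial UMIs left out of the totals, the latter also chosen after seeing the data. With members used for clustering 100 pairs could be compared, and with means over clusters 105. For these the cause was not tested. Leaving out a replicate could not be done with 1 library per group. No paired analysis was possible because the groups share only replicate number 1. Depth limits Srxn1, with 675 and 1532 UMIs over all cells, and Gpx2 outside epithelium.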

Other observations

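Enteric glia (35 wild-type cells and 55 labelled knockout) were too few to be compared as a class. Their Gpx3 stood at 23.0 CPM (4 UMIs) and 697 CPM (160 UMIs), their Sod2 at 202 and 544 CPM, their Sod3 at 46.1 and 431 CPM, and their Prdx1 at 1054 and 984 CPM. Mast cells and basophils (85 and 20 cells) had Gpx1 at 1820 and 1108 CPM and Gpx4 at 421 and 236 CPM. The unnamed cluster 23 (62 and 83 cells) had Gpx3 at 1881 and 4466 CPM and Sod2 at 448 and 1536 CPM.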
